A study of Rattus norvegicus with 24 samples.

Results

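The hearts of the 24 rats were examined for 59 genes, chosen by symbol, around the handling of glutathione, hydrogen peroxide and superoxide. They comprised the glutathione transferases (symbols beginning Gst and Mgst), glutathione peroxidases (Gpx), peroxiredoxins (Prdx), superoxide dismutases (Sod), glutaredoxins (Glrx) and thioredoxin-named genes (Txn, with Txnrd1 left out), plus Cat, Gsr, Gss, Srxn1, Msra, Sqstm1, Nfe2l2 and Keap1. Only probe sets that carry a single gene symbol were used, and the brightest was kept for each gene. These rules gave 59 genes, measured by 67 probe sets, of 10411 genes with a one-symbol probe set, and all 59 matched a gene of the rat assembly GRCr8. By role, 15 were cytosolic glutathione transferases, 4 were membrane or mitochondrial transferases, 7 were glutathione peroxidases, 6 were peroxiredoxins with sulfiredoxin and 4 were superoxide dismutases with catalase. A further 6 served glutathione synthesis, recycling or glutaredoxin reactions, and 3 controlled NRF2 signaling. The thioredoxin group of 14 holds the thioredoxin-named genes and Msra. Some members, such as Txnip, Nfe2l2, Keap1 and Sqstm1, bind or regulate other proteins, and a shared name need not mean a shared function.

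All rats were male Wistar Kyoto, 12 to 14 weeks old at purchase, and received weekly intratracheal instillations at 1 mL/kg under halothane. There were 6 groups of 4 rats. Controls received saline. MSH rats received Mount St. Helens ash, volcanic particles with no water-soluble zinc. PM-HD rats received a whole suspension of oil combustion particles with 14.5 μg/mg water-soluble zinc and 3.0 μg/mg nickel, and PM-LD rats received the same particles at a lower dose, labelled 7.25 μg/mg zinc and 1.5 μg/mg nickel. PM-L rats received the leachate of the particles, free of solids, and the last group received zinc sulfate in saline. The labels give the zinc sulfate as 14.5 μg/mL in one field and 33.4 μg zinc per mL in another. The study names the 8-week time point for the saline, MSH, PM-HD and zinc sulfate arrays. The paper states that all components were given at a higher concentration in this shorter exposure than in its longer exposure. It lists 33.4 μg of soluble zinc per kg each week for zinc sulfate rats of the longer exposure, and more for 8 weeks. At 1 mL/kg both label values are therefore below the 8-week zinc sulfate dose of the paper, and neither is taken as the dose. In the design of the paper, PM-HD, PM-L and zinc sulfate rats of 1 time point received equal soluble zinc. The weeks of the PM-LD and PM-L arrays are not given in the sources used here, so any difference in weeks cannot be told apart from the exposure in their comparisons with saline. Rats were killed 48 h after the last instillation. RNA came from left ventricle with septum, so each value is a whole-tissue level in which fewer cells of a type and less RNA per cell cannot be told apart.

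Superoxide dismutases turn superoxide into hydrogen peroxide, which catalase, glutathione peroxidases and peroxiredoxins then reduce to water. Glutathione peroxidases draw on reduced glutathione, and peroxiredoxins draw mainly on thioredoxin, while reductases restore both donors from NADPH. Glutathione transferases couple glutathione to reactive compounds, and the transcription factor NRF2, held back by KEAP1, raises many of these genes in stressed cells. Heart muscle is rich in mitochondria, which are a major site of superoxide formation.

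The arrays differed in the Gapdh 3′/5′ ratio, while their brightness had been set close by scaling each to a common trimmed mean. The paper reports ribosomal RNA ratios at or above a set minimum for all samples. The median signal of an array ran from 206.1 to 278.3 signal units, and the Gapdh 3′/5′ ratio, taken between control probe sets at both ends of the transcript and higher in degraded RNA, ran from 1.11 to 5.62. The ratio was above 3 on 9 arrays, which were spread over all 6 groups. These were 2 arrays each of MSH, PM-HD and PM-L rats and 1 array each of saline, PM-LD and zinc sulfate rats. Atrial transcripts also varied, with summed signals of Nppa, Myl7, Sln and Myl4 from 2667 to 43218, and 6 arrays stood above a mean of 11 on the log2 scale. Of 8 heart muscle markers, the 7 measured were bright on every array, as with Myh6 at 21869 to 47382, and the neutrophil markers S100a8 (5.6 to 63.5) and S100a9 (10.7 to 191.4) were dim.

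Few of these genes passed a test between the exposed and the saline hearts. With the thresholds of the study, a limma p under 0.05 and a fold change, on the scale of log2(signal + 16), of more than 25% up or down, 0 of the 59 genes changed in MSH-exposed rats, where 3.18% of all 15866 probe sets did. In PM-HD–exposed rats the count was also 0, against 3.22% of all probe sets. A single gene changed in PM-LD rats (background 4.11%), 1 in PM-L rats (4.25%) and 1 in zinc sulfate–exposed rats (3.94%). Zinc sulfate compared directly with MSH gave 1 gene, against 5.89% of all probe sets. The 4 groups with soluble zinc compared with saline and MSH gave 0 genes (background 3.52%), the 3 groups with particle solids compared with the 3 without gave 1 (2.48%), and the moderated F test across the 6 groups gave 1 (5.01%). In every comparison the share of the 59 genes, 0 or 1.69%, was below the share of all probe sets. A call of 1 gene already makes 1.69%, so counts of 0 or 1 do not set these genes apart from the background. The comparisons reuse the same rats and are not independent. After Benjamini-Hochberg adjustment in limma over all probe sets, 0 genes passed in any comparison, and the lowest adjusted p was 0.75. At an unadjusted p under 0.05 and no fold limit the counts ranged from 0 to 2. The median log2 change of the 59 genes lay between -0.08 in PM-L rats and 0.03 in zinc sulfate rats, and the median of all probe sets between -0.01 and 0.00.

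**Figure D1:**
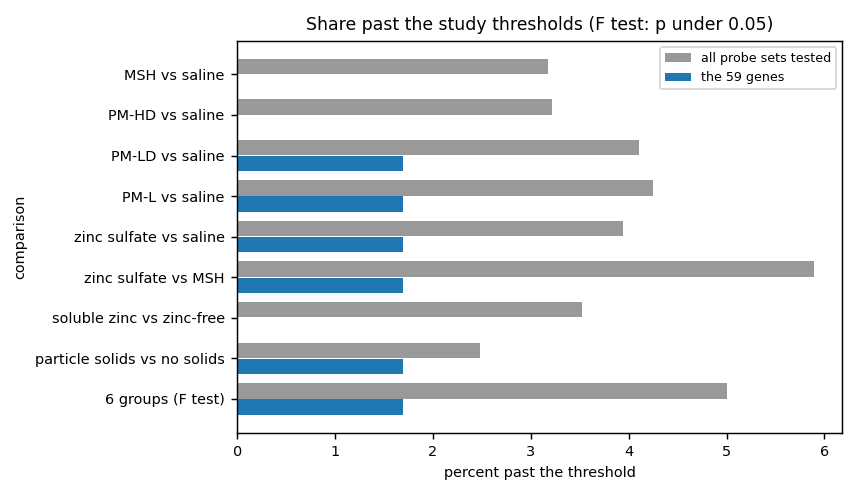
Share of genes past the study thresholds in 9 comparisons, in percent (x axis), for the 59 genes (blue) and for all 15866 probe sets (gray). The blue bars reach 1.69% or are at 0, and each is shorter than the gray bar beside it.

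The precision of the fit set what could be seen. The 95% interval of the change stayed within a doubling or halving for 40 to 45 of the 59 genes in the 6 pairwise comparisons. It stayed within 1.5-fold for 14 to 18, and its median half-width was 0.59 log2 units, so changes of 1.5-fold could go unseen in most genes. For the averaged contrasts of soluble zinc and of particle solids it stayed within a doubling or halving for 58 of 59. Within 1.5-fold it stayed for 42 and 48. Between rats of the same group the median SD was 0.42 log2 units for these genes, against 0.39 over all probe sets.

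**Figure D2:**
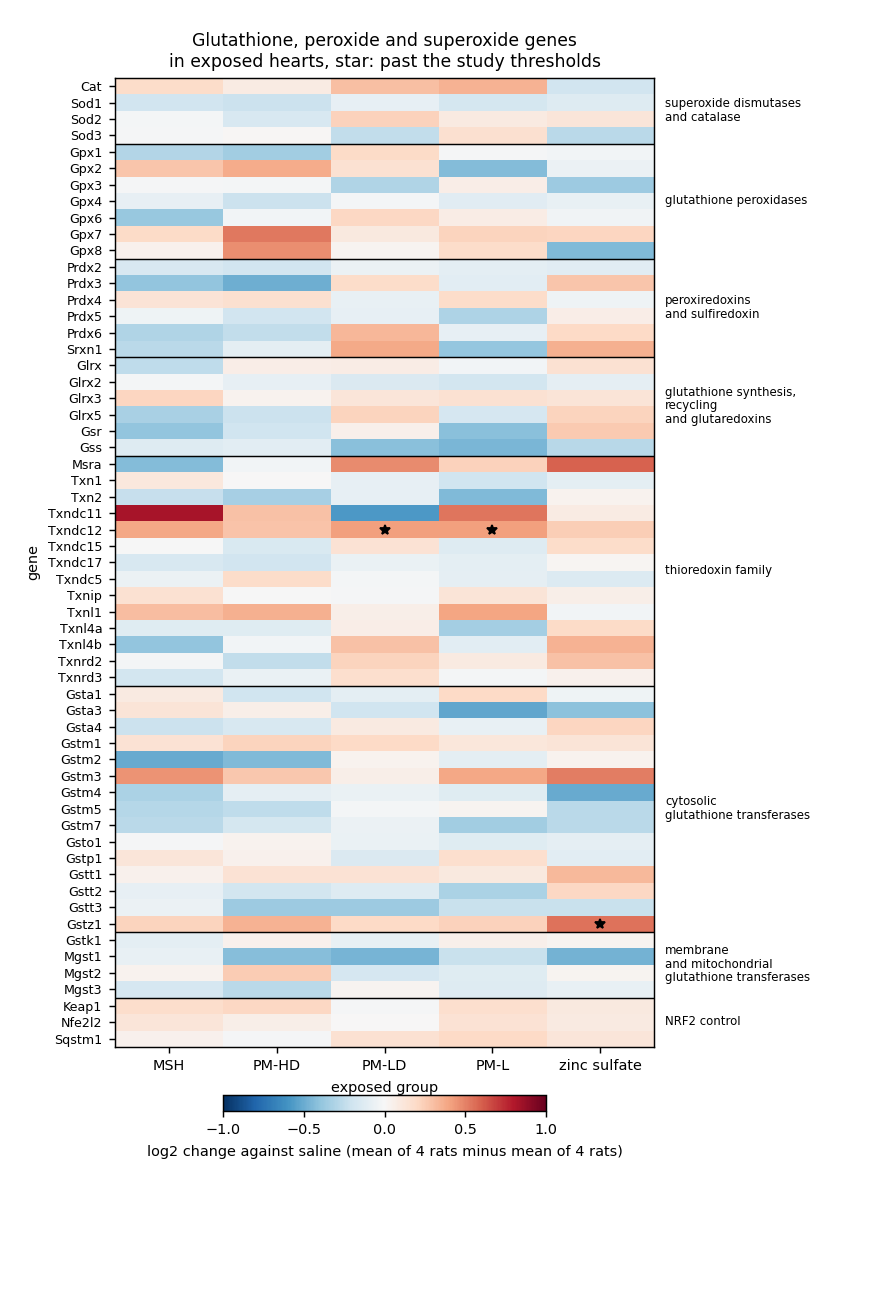
Log2 change against saline (color, from -1 to 1) of the 59 genes (rows, ordered by role) in 5 exposed groups (columns), each the difference of the means of 4 rats. Stars mark the 3 changes past the study thresholds, Txndc12 in PM-LD and PM-L rats and Gstz1 in zinc sulfate rats.

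Of the superoxide and catalase genes, 0 of 4 changed in any comparison with saline. Sod1, the cytosolic copper–zinc dismutase, gave signals of 11313, 13848, 12194 and 9696 in the 4 saline rats. It gave 12385, 12905, 7957 and 13818 in the zinc sulfate rats. Sod1 levels overlapped, with a log2 change of -0.13 (SE 0.14). Sod2, the mitochondrial manganese dismutase, was at 3703, 3617, 2951 and 1313 in saline rats. In zinc sulfate rats it was at 3927, 4629, 1040 and 5152. Each group held 1 low heart among 3 high ones, and the log2 change was 0.12 (SE 0.48). Sod3, the secreted dismutase, was at 1710, 1202, 1513 and 1886 in saline and at 1116, 1411, 1353 and 1343 in zinc sulfate rats. Its log2 change was -0.27 (SE 0.22).

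Cat, which breaks down hydrogen peroxide in peroxisomes, was the gene of this group whose normalized values separated zinc sulfate from MSH rats. Its signals were 2148, 2027, 1878 and 1921 in zinc sulfate rats and 2194, 2955, 2745 and 2087 in MSH rats. On the normalized log2 scale the 4 zinc sulfate values lay below the 4 MSH values (exact permutation p = 0.0286, the smallest that 4 against 4 rats allow), although the unnormalized signals overlapped. The difference was -0.38 log2 units (SE 0.22) and did not pass the limma threshold. In saline rats Cat was at 2841, 2680, 2687 and 1218, so the lowest of all 24 values was a control heart.

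**Figure D3:**
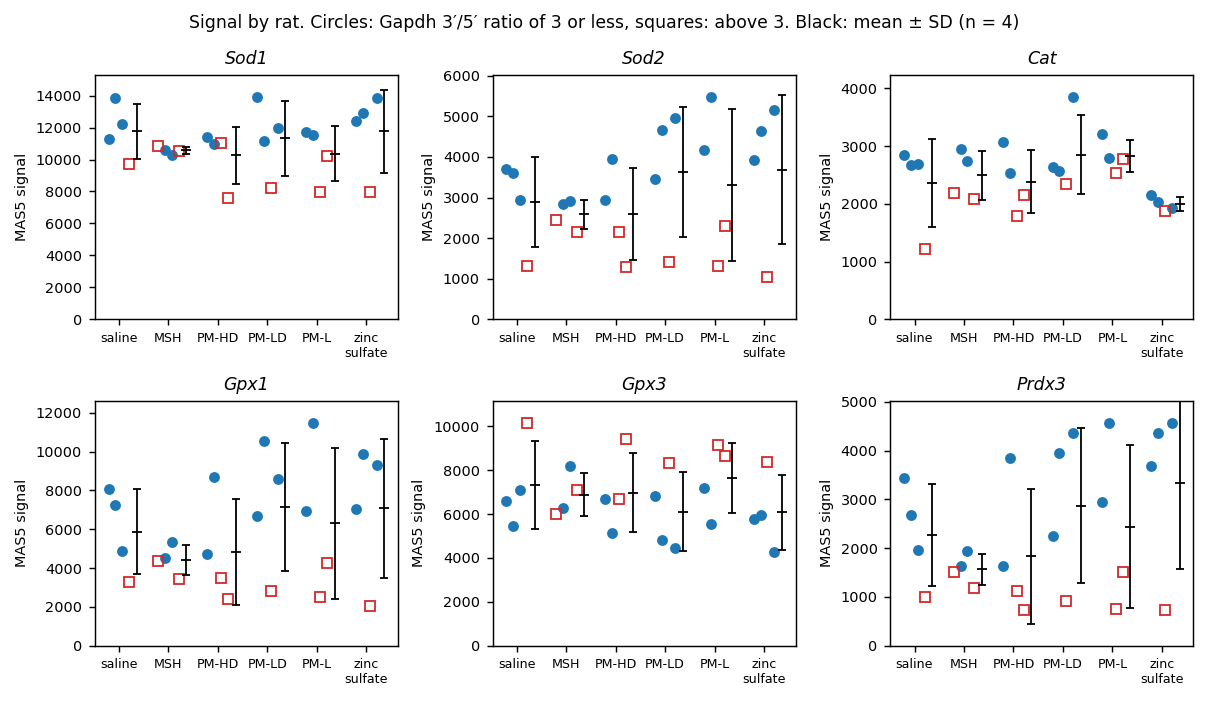
Signal (y axis, from 0) of Sod1, Sod2, Cat, Gpx1, Gpx3 and Prdx3 in each rat of the 6 groups (x axis). Squares are arrays with a Gapdh ratio above 3, circles are the others, and black marks give the mean ± SD (n = 4). The squares lie low for Sod2, Gpx1 and Prdx3 and mostly high for Gpx3.

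Among the 7 glutathione peroxidases the broad cellular enzymes passed no test between groups. Gpx1, the abundant cytosolic and mitochondrial form, was at 8070, 7273, 4892 and 3295 in saline rats and 7067, 9890, 2031 and 9317 in zinc sulfate rats. The groups overlapped and the log2 change was -0.03 (SE 0.48). Gpx4, which reduces lipid peroxides in membranes, changed by -0.07 (SE 0.29). Gpx3, the secreted plasma form, was at 6588, 5468, 7095 and 10150 in saline and 5754, 5962, 8394 and 4255 in zinc sulfate rats. Its log2 change of -0.36 (SE 0.31) was within the spread. Gpx7, a protein of the endoplasmic reticulum, showed 0.53 (SE 0.31, exact permutation p = 0.143) in PM-HD rats.

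Gpx8, an endoplasmic reticulum protein of the same family, was the gene that passed the 6-group test. Its signals were 452, 531, 475 and 479 in saline, 451, 518, 486 and 577 in MSH and 649, 461, 602 and 1089 in PM-HD rats. They were 542, 326, 775 and 354 in PM-LD, 524, 320, 813 and 614 in PM-L and 304, 323, 448 and 272 in zinc sulfate rats. All 4 zinc sulfate hearts were below all 4 saline and all 4 MSH hearts, while PM-HD, PM-LD and PM-L overlapped saline. The moderated F test of limma passed the unadjusted threshold of 0.05 (adjusted p = 0.995), and it still passed in 7 of the 24 fits that left out 1 array. Against saline the zinc sulfate change was -0.44 (SE 0.25, exact permutation p = 0.0286), and against MSH it was -0.48 (exact permutation p = 0.0286). Neither pairwise difference passed in limma. The 6 fibroblast markers moved the same way, with 0 of 6 higher in zinc sulfate than in MSH rats, a median log2 difference of -0.43 and a summed signal of 17408 to 19790 in zinc sulfate rats against 19918 to 27768 in MSH rats. Against saline 0 of 6 were higher (median -0.21). Of 4 smooth muscle markers 0 were higher than in MSH rats (median -0.35, 1 called lower), and of 4 endothelial markers 0 were (median -0.23). Their part in the Gpx8 result was not tested. Gpx8 also rose with the Gapdh 3′/5′ ratio within groups, by 0.28 log2 units per log2 unit of the ratio (SE 0.08). The median ratio was 1.50 in zinc sulfate, 1.87 in saline and 2.76 in MSH rats.

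Gpx2, known best from the gut lining, was the gene that passed in the comparison of particle solids. Its signals were 304, 127, 160 and 183 in MSH, 200, 158, 183 and 233 in PM-HD and 195, 87.2, 181 and 182 in PM-LD rats. They were 134, 162, 108 and 175 in saline, 64.1, 168, 123 and 88.0 in PM-L and 117, 90.8, 193 and 121 in zinc sulfate rats. Hearts exposed to solids were higher on average, but the 2 sides overlapped. The difference was 0.43 log2 units (SE 0.15, limma adjusted p = 1.00). It passed with each of the 24 arrays left out in turn, and it did not pass once the 9 arrays with a ratio above 3 were removed, where the difference was 0.32.

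**Figure D4:**
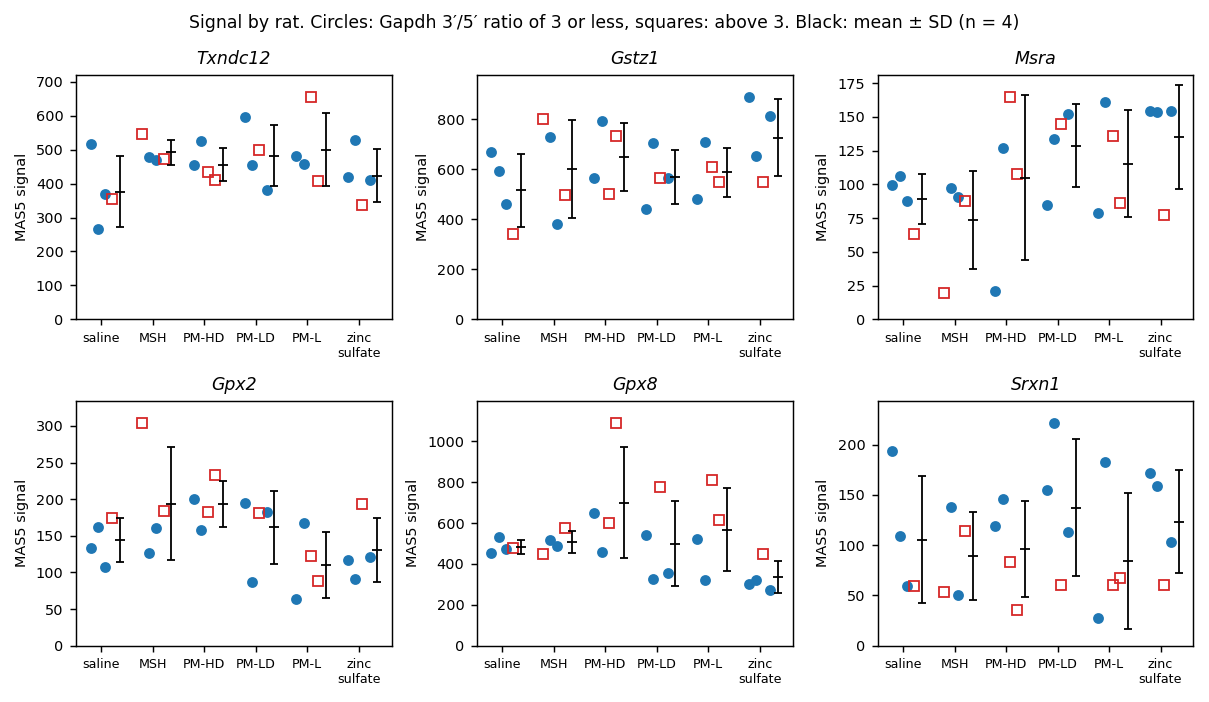
Signal (y axis, from 0) by rat and group (x axis) for the 5 genes past a threshold in at least 1 comparison, Txndc12, Gstz1, Msra, Gpx2 and Gpx8, and for Srxn1, which was not. Squares are arrays with a Gapdh ratio above 3, circles the others, black marks mean ± SD (n = 4). For Gpx8 the 4 zinc sulfate hearts lie below all saline and MSH hearts.

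The peroxiredoxins and sulfiredoxin passed no test between groups with all 24 arrays. Prdx3, the mitochondrial form, was at 3442, 2689, 1958 and 1007 in saline and 3683, 4362, 742 and 4560 in zinc sulfate rats. Its log2 change was 0.28, with a 95% interval from -0.99 to 1.55 that held large changes in both directions. Prdx5, found in mitochondria and peroxisomes, changed by 0.07 (SE 0.46). Prdx6, which also acts on phospholipid peroxides, changed by 0.20 (SE 0.47), and Prdx2, an abundant cytosolic form, by -0.11 (SE 0.22). Srxn1, which repairs over-oxidized peroxiredoxins and is a well-known NRF2 target, ran from 27.1 to 222 over the 24 hearts. It changed by 0.35 (SE 0.53) in zinc sulfate rats and by -0.39 in PM-L rats, and neither passed.

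Glutathione synthesis and recycling genes did not pass in any comparison with all 24 arrays. Gss and Gsr were dim. Gss, the last enzyme of glutathione synthesis, ran from 42.1 to 203 over the 24 hearts and changed by -0.28 (SE 0.35) with zinc sulfate. Gsr, which regenerates reduced glutathione, ran from 40.8 to 178 and changed by 0.26 (SE 0.37). Glrx, the cytosolic glutaredoxin that removes glutathione from proteins, ran from 69.3 to 289 and changed by 0.15 (SE 0.30). A second Glrx probe set, nearly as bright, differed by -0.76 (SE 0.52), the other way, and neither passed.

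In the thioredoxin family, the core proteins passed no test with all 24 arrays. Txn1, the cytosolic thioredoxin, had the lowest ratio of highest to lowest signal among the 59 genes, 1.60 (3698 to 5917), and changed by -0.10 (SE 0.21) with zinc sulfate. Txn2, the mitochondrial thioredoxin, changed by 0.03 (SE 0.31), and Txnip, which binds and inhibits thioredoxin, by 0.06 (SE 0.34). Txndc12, a thioredoxin-like protein of the endoplasmic reticulum, passed in the PM-LD and PM-L rats. It was at 516, 265, 369 and 356 in saline and 597, 454, 500 and 380 in PM-LD rats. In PM-L rats it was at 481, 456, 656 and 409. Both exposed groups overlapped saline, since 1 control heart was as high as most exposed ones. The changes were 0.41 in PM-LD and 0.41 in PM-L rats (SE 0.19 and exact permutation p = 0.143 for each), with a limma adjusted p of 0.999 for both. The PM-LD call was kept in 7 and the PM-L call in 10 of the 24 fits that left out 1 array. Both comparisons share the saline rats. Txndc12 did not pass in the other exposed groups, where signals were of similar size. They were 545, 480, 469 and 474 in MSH and 454, 524, 434 and 410 in PM-HD rats. In zinc sulfate rats they were 419, 528, 338 and 411. Txndc11, a dim relative named after its values were seen, was at 80.1, 25.3, 67.2 and 73.7 in saline and 124.1, 77.9, 168.1 and 131.1 in MSH rats. The MSH hearts were higher apart from 1 that overlapped the controls, and the log2 change of 0.82 (SE 0.43, exact permutation p = 0.0571) did not pass.

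Msra, which repairs oxidized methionine, passed for zinc sulfate against MSH. It was at 154, 154, 77.3 and 154 in zinc sulfate and 19.7, 97.6, 90.5 and 87.7 in MSH rats. The groups overlapped, because the low zinc sulfate heart lay within the MSH range. The difference was 1.02 log2 units (SE 0.45, exact permutation p = 0.114, limma adjusted p = 0.75). Without MSH replicate 1, at 19.7, the difference was 0.58 and no longer passed, nor did it pass without zinc sulfate replicate 1, 2 or 4. It turned to -0.12 with the Gapdh ratio as a covariate on the 15 arrays with a ratio of 3 or less. Against saline Msra changed by 0.59 (SE 0.45). Txnl1, a cytosolic thioredoxin-like protein, was at 2017, 1929, 1515 and 1886 in zinc sulfate rats, below all 4 MSH hearts at 2111, 2411, 2152 and 2209 (log2 difference -0.34, exact permutation p = 0.0286). It did not pass in limma, and a second bright Txnl1 probe set differed the other way, by 0.46 (SE 0.34), and did not pass either.

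The glutathione transferases gave 1 change, in Gstz1, which also acts in the breakdown of tyrosine. Gstz1 was at 671, 593, 460 and 340 in saline and 890, 652, 549 and 813 in zinc sulfate rats. The zinc sulfate hearts were higher on average and overlapped the controls. The change was 0.54 (SE 0.26, exact permutation p = 0.114, limma adjusted p = 0.999), and it passed in 11 of the 24 fits that left out 1 array. Without saline replicate 4 it was 0.33. Gstt1 was close to the detection floor, at 7.30 to 23.6 in all hearts. Its log2 change of 0.32 against saline (exact permutation p = 0.0857) passed the p threshold of limma but missed the fold limit. Its normalized values separated zinc sulfate from MSH rats, but the signals overlapped, at 9.8, 11.9, 11.8 and 23.6 against 13, 11.4, 10.1 and 9.0, mostly under the 16 units added before the log.

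Gstp1, the pi-class transferase, ran from 1559 to 3113 and changed by -0.11 (SE 0.25) with zinc sulfate. Of the mu class, Gstm1 changed by 0.13, Gstm2 by 0.03, Gstm5 by -0.27 and Gstm7 by -0.27, with SE from 0.24 to 0.46. Gstm3 was near the floor (4.70 to 82.2), and Gstm4 changed by -0.50 (SE 0.27). The mu genes are close copies of each other, so their probe sets may share signal. Of the membrane forms, Mgst1 changed by -0.47 (SE 0.29), Mgst2 by 0.03 (SE 0.25) and Mgst3 by -0.07 (SE 0.41).

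The NRF2 control genes passed in no comparison. Nfe2l2, which encodes NRF2, was at 828, 766, 772 and 622 in saline and 866, 615, 918 and 714 in zinc sulfate rats. The log2 change was 0.09 (SE 0.18). Keap1, its inhibitor, changed by 0.09 (SE 0.19), and Sqstm1, which binds KEAP1 and marks cargo for autophagy, by 0.12 (SE 0.13). A second, dimmer Keap1 probe set differed from saline by 0.91 (SE 0.59) and did not pass. A second, dimmer Sqstm1 probe set was 0.47 higher in zinc sulfate than in MSH rats and passed the unadjusted limma threshold. The brightest, at 0.08, did not, nor did still dimmer Sqstm1 probe sets at -0.05 (SE 0.18) and 0.14 (SE 0.31).

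Counted by hearts that did not overlap on the normalized scale, 0 of 59 genes separated from saline after MSH (background 3.13% of probe sets), PM-HD (2.1%), PM-LD (2.29%) or leachate (2.37%). In zinc sulfate rats 1 gene did, Gpx8 (background 2.72%). Between zinc sulfate and MSH it was 4, Cat, Gpx8, Gstt1 and Txnl1, or 4 of 59 where 5.16% of all probe sets separated. The unnormalized signals of Cat and Gstt1 overlapped.

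The spread between rats of a group followed the Gapdh ratio. The limma fit, added after the data had been seen, held group means, the Gapdh ratio and the mean of the 4 atrial transcripts together. At an adjusted p under 0.05, 26 of the 59 genes (44.1%) were lower on arrays with a higher ratio, where 16.1% of all probe sets were. A further 10 (16.9%) were higher, against 16.7% of all probe sets. The 59 genes were brighter than this background, since 15 of them lay under the median signal of all tested probe sets, 241.6. The shares were not matched for brightness, so the 44.1% is not set down as particular to these genes. For the atrial mean in the same fit, 0 genes were higher (background 0.0378%) and 0 lower (background 0%). Centring each array on its median in place of quantile normalization gave 31 lower and 5 higher, against 21.2% and 11.9% of all probe sets. Without the 2 arrays farthest from the median ratio, the counts were 26 lower and 9 higher, against 13.6% and 13.3% of all probe sets.

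The steepest fall was that of Prdx3, the mitochondrial peroxiredoxin. Prdx3 fell by 1.05 log2 units per log2 unit of the ratio (SE 0.06, limma adjusted p = 2.1e-09), Sod2 fell by 0.85 (SE 0.05), Prdx5 fell by 0.80 (SE 0.08), Prdx6 fell by 0.77 (SE 0.06), Gstm2 fell by 0.76 (SE 0.07), and both Gpx1 (SE 0.06) and Glrx5 (SE 0.07) fell by 0.75. Prdx3 was at 742 in the zinc sulfate heart with a ratio of 5.57 and at 3683 to 4560 in the other 3. By role, 5 of 6 peroxiredoxin and sulfiredoxin genes, 3 of 4 superoxide and catalase genes and 5 of 14 genes of the thioredoxin group were lower. The genes that rose were Gpx3 by 0.49 (SE 0.07), Txnip by 0.42, Mgst2 and Gpx7 by 0.36, Gstp1 by 0.35, Txn1 by 0.29, Gpx8 by 0.28, Sod3 by 0.24, Keap1 by 0.21 and Prdx4 by 0.20.

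**Figure D5:**
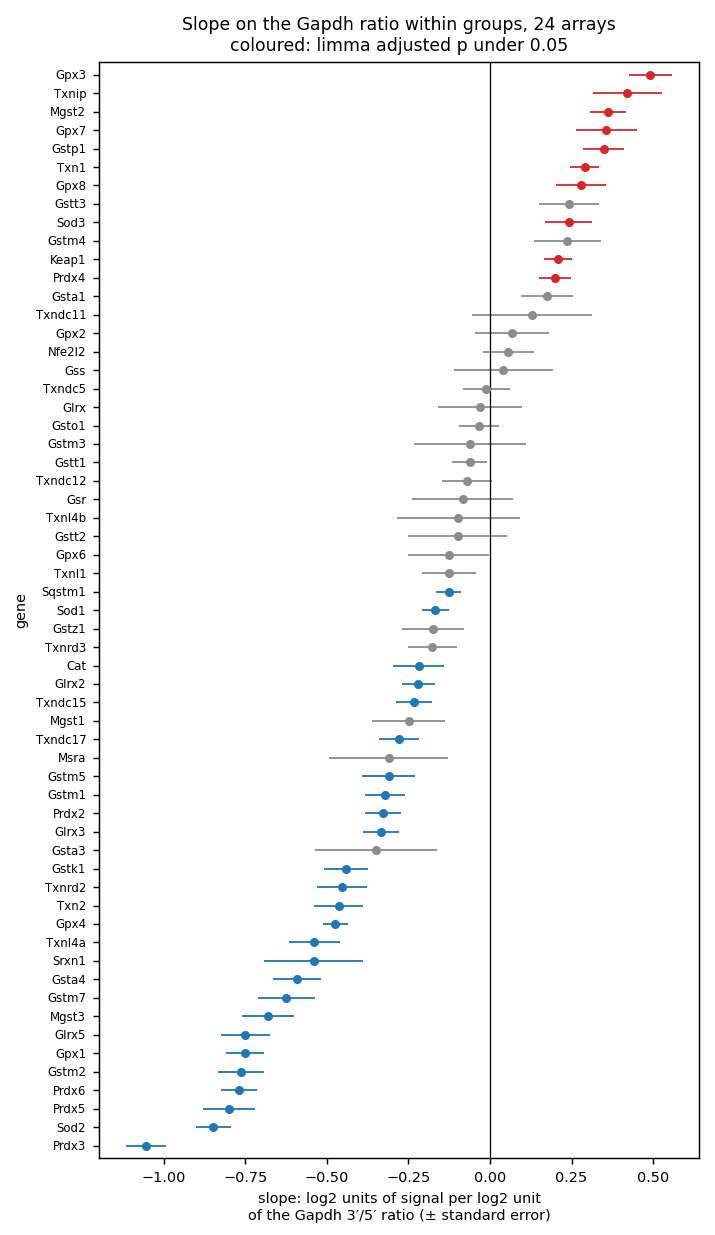
Slope of each of the 59 genes (rows) on the Gapdh 3′/5′ ratio within groups, in log2 units of signal per log2 unit of ratio (x axis), with the standard error, from 24 arrays. The mean of the atrial transcripts was in the same fit. Blue points (26 genes) fell and red points (10 genes) rose at a limma adjusted p under 0.05, and Prdx3 at -1.05 and Gpx3 at 0.49 are the ends.

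Because of this spread the zinc comparisons were also fitted without the 9 arrays above a ratio of 3. Zinc sulfate against MSH then gave 12 genes, 9 higher and 3 lower, where 11.4% of all probe sets passed. Prdx3 was higher by 1.11 (SE 0.36), Gstm2 by 0.88 (SE 0.30), Glrx5, a mitochondrial glutaredoxin of iron–sulfur assembly, by 0.83 (SE 0.29) and Sod2 by 0.49 (SE 0.19), and Cat, Gpx3 and Gpx8 were lower by limma (log2 difference of Cat -0.59, SE 0.19). The adjusted p was at least 0.343. For soluble zinc the same arrays gave 7 genes, where 7.93% of all probe sets passed. Glrx was higher by 0.44 (SE 0.15), Glrx5 by 0.47, Prdx3 by 0.56, Prdx6 by 0.49, Sod2 by 0.35 and Gsta4 by 0.36, and Gss was at -0.59 (SE 0.25). Of these, Glrx5, Prdx3, Prdx6, Sod2 and Gsta4 also fell with the ratio over all 24 arrays, and Glrx and Gss did not. Ratios on the kept arrays ran from 1.35 to 2.36 in zinc-free and from 1.11 to 2.46 in soluble-zinc rats. Only 2 MSH arrays remained, with ratios of 2.02 and 2.36, above the 1.42 to 1.52 of the 3 zinc sulfate arrays. With the ratio as a covariate on the same 15 arrays the count for zinc sulfate against MSH was 2, Cat (lower) and Prdx5 (higher). With all 24 arrays and the covariate it was 2, Cat and Msra. In the covariate fit on all arrays the Cat difference was -0.44 (limma adjusted p = 0.532).

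Promoter windows of these genes were searched for the letters TGACNNNGC on either strand, the core of the antioxidant response element that NRF2 binds. The windows run from 250 bases before to 50 after each start and are RefSeq sequences of GRCr8. A match was present for 15 of the 50 genes with a window (30.0%), for 15.4% of the 8610 genes with a one-symbol probe set and a window, and for 12.1% of all 33469 windows. A match is a description of letters and not a known binding site. The 5 matches below are examples. Gpx2 and Gstz1 passed a threshold, and Gstp1, Sod2 and Prdx5 followed the Gapdh ratio in opposite directions. Gstm5, Gstm7, Prdx4 and Txndc17 also followed the ratio and had a match, which is not shown. No match was found for Gpx8, Msra or Txndc12, which passed a threshold too. Capitals mark the 9 letters of the match, read on the strand of the gene, so that a match on the opposite strand appears reversed and complemented.
Gpx2, chr6:101230022-101230062, minus strand: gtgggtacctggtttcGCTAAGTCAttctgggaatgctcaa
Gstz1, chr6:112525359-112525399, plus strand: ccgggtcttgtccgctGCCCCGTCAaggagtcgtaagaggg
Gstp1, chr1:210769742-210769782, minus strand: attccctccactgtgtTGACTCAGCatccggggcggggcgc
Sod2, chr1:50050179-50050219, minus strand: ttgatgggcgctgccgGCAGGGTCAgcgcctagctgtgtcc
Prdx5, chr1:213532004-213532044, minus strand: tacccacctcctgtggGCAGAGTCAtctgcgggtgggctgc

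Other genes of the same chemistry gave few changes by the study thresholds. Of 18 measured genes of glutathione and NADPH supply, 1 was higher in PM-LD and 1 in PM-L rats, where 4.11% and 4.25% of all probe sets passed. Both were Glul, glutamine synthetase, by 0.52 (SE 0.15) and 0.40 (SE 0.15), and Glul also passed the F test (background 5.01%). Of 19 other NRF2 targets and detoxification enzymes, 1 was higher and 1 lower in PM-L rats, where 4.25% of all probe sets passed. They were Ephx1 (epoxide hydrolase) by 0.75 (SE 0.25) and Akr1b8 (an aldo-keto reductase) at -1.02 (SE 0.45). Ephx1 was also higher with soluble zinc, by 0.42 (SE 0.16), as 1 of 19 (background 3.52%). Of 18 other regulators and repair genes, 3 were higher in zinc sulfate than in MSH rats, where 5.89% of all probe sets passed. These were Sesn1, a stress-response sestrin, by 1.00 (SE 0.34), Aco1, the cytosolic aconitase, by 0.41 (SE 0.16) and Ogg1, which repairs oxidized guanine, by 0.42 (SE 0.18). In the same list Ccs, the copper chaperone of Sod1, was at -0.42 (SE 0.17) in MSH and Mutyh, a DNA repair enzyme, at -0.81 (SE 0.39) in PM-HD rats. Selenow, a selenoprotein, was at 0.39 (SE 0.19) in PM-L rats, and Sesn1 was higher by 0.58 (SE 0.21) with soluble zinc. Each was 1 of 18 in its comparison, where the background was 3.18% for MSH, 3.22% for PM-HD, 4.25% for PM-L and 3.52% for soluble zinc. Of 10 oxidant sources, Ncf1, a subunit of the phagocyte oxidase, was 1.56 higher (SE 0.63) in zinc sulfate than in MSH rats (background 5.89%). It was 0.80 higher (SE 0.39) with soluble zinc (3.52%), and Nos2, the inducible nitric oxide synthase, was at -1.23 (SE 0.58) in PM-L rats (4.25%). The lowest limma adjusted p among these genes was 0.606. Single calls in lists of this size do not set them apart from the background.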

How the data were processed

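RNA of left ventricle with septum was hybridized to Affymetrix rat arrays. The deposited values are MAS5 signal intensity, scaled by the authors to a common trimmed mean (500.11 to 500.17 on each array), whereas the study itself worked from robust multiarray averages, not analysed here. Of 15923 probe sets, 57 controls were left out. The intensity plus 16 was taken as log2, quantile normalized and fitted with limma 3.58.1 in R 4.3.3, with 1 mean for each of the 6 groups over 24 arrays. Calls used p under 0.05 with fold above 1.25 or below 0.75, and Benjamini-Hochberg adjustment ran over 15866 probe sets. Single genes were also tested with the exact two-sided permutation of 4 against 4 rats, which has 70 arrangements. The number of arrays limits the precision. Replicates were separate rats, no array pair was identical, and correlations between arrays ran from 0.895 to 0.968.

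Genes were named from the platform annotation, and 2 probe sets with several symbols were left out. The members and lists were chosen with earlier results of these data known. Genes named were those past a threshold, those past the F test and a set list of main enzymes. Txnl1 and Gstt1 were added for groups that did not overlap, and Txndc11 and further members after their values were seen. Alternatives were the pseudocount, centring, filters, fold limits, covariates, the arrays used, a replicate block and leaving out each array.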

Additional observations from a re-analysis of the deposited data

Results flagged for a closer look

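In 36 named genes and 6 groups of 4 hearts, 216 groups were examined for a heart whose gap to its nearest neighbor, as a share of the range of its group, exceeded Dixon's critical value. If groups were independent, chance would flag about 1 in 20, or 10.8 here, and 23 stood apart. The genes share the same arrays and the signals were unnormalized, so 23 against 10.8 does not measure an excess. Of the 23, 20 were on arrays with a Gapdh ratio above 3 and 10 on zinc sulfate replicate 3.

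On zinc sulfate replicate 3 the signal was low for Gpx4 (2895.1), Gstm7 (295.2), Msra (77.3), Prdx2 (2721.4), Prdx5 (1350.3), Prdx6 (1056.8) and Txn2 (858.6). It was high for Gstp1 (3113.3), Keap1 (924.7) and Mgst2 (883.8).

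In saline replicate 4, Cat was low (1217.9) and Mgst2 high (700.5). In PM-HD replicate 4, Sod1 (7618.2) and Gstm5 (205.8) were low and Nfe2l2 (1063.4) high. In MSH replicate 1, Msra was low (19.7) and Txndc12 high (545.0). In PM-LD rats, Gpx2 was low in replicate 2 (87.2) and Prdx2 low in replicate 3 (3403.2). In PM-L rats, Gsr was high in replicate 2 (161.6), Gstm5 low in replicate 3 (320.4) and Gstm3 high in replicate 4 (77.9). Gstm3 was also high in zinc sulfate replicate 1 (82.2).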

How the results depend on the processing

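Of 134 counts of changed genes recomputed under other settings, 95 stayed within 1.5 times the reported count and 39 did not. The cause of the shifts was not tested. A pseudocount of 1 gave 2 genes for zinc sulfate against MSH, 1 for soluble zinc and 0 for the F test, and a pseudocount of 64 gave 1 for soluble zinc. Median centring gave 0 for PM-LD, 0 for PM-L and 2 for zinc sulfate against saline, and no fold limit gave 2 for zinc sulfate against saline. The Gapdh ratio as a covariate gave 1 for MSH, 1 for PM-HD, 2 for PM-L and 2 for zinc sulfate against MSH. The atrial mean gave 0 for PM-LD, 0 for PM-L and 2 for zinc sulfate against MSH, and both covariates, added after seeing the data, gave 1 for PM-HD, 0 for PM-LD and 2 for the F test. Without the arrays of Gapdh ratio above 3 the counts were 1 for MSH, 3 for zinc sulfate against saline (Cat, Gpx8 and Gstm4, all lower), 12 for zinc sulfate against MSH, 7 for soluble zinc (6 higher), 0 for particle solids and 3 for the F test. With the ratio as a covariate on those arrays, also added after seeing the data, they were 1 for PM-HD, 4 for zinc sulfate against saline, 2 for zinc sulfate against MSH, 0 for particle solids and 2 for the F test, and Msra turned to -0.12 for zinc sulfate against MSH. With only the arrays of the compared groups they were 1 for MSH, 0 for PM-LD, 0 for PM-L and 4 for zinc sulfate against MSH, and in the fit of 16 arrays 1 for MSH and 1 for PM-HD.

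Leaving out each array in turn gave 0 to 3 genes for MSH, 0 to 2 for PM-HD, 0 to 1 for PM-LD, 0 to 2 for PM-L, 0 to 3 for zinc sulfate against saline, 0 to 5 for zinc sulfate against MSH, 0 to 1 for soluble zinc, 1 to 2 for particle solids and 0 to 2 for the F test. The array number of saline replicate 1 in the labels lies apart from the others, and the sources do not say whether it was run separately. Without it the counts were 3 for MSH (Txndc11, Txndc12 and Txnl1), 2 for PM-HD, 2 for PM-L and 3 for zinc sulfate. Without zinc sulfate replicate 3 they were 3 against saline and 5 against MSH (Gstm2, Gstt1, Msra, Prdx3 and Txn2).

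Whether replicate numbers pair the rats was not settled. The deviations of same-numbered hearts from their group means correlated from -0.26 to 0.523, and hearts of different numbers were not compared. The replicate block gave 1 gene for MSH, 1 for PM-HD, 2 for PM-L and 1 for soluble zinc.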

Other observations

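A probe set shared by Prdx1 and Prdx1l1, left out because it carries more than 1 symbol, had group means from 4092 ± 185 in MSH to 4791 ± 1078 in PM-LD rats (SD, n = 4).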
